A study of Mus musculus with 6 samples.

Results

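Ionotropic and metabotropic receptors for glutamate, GABA and glycine were followed gene by gene in bulk RNA sequencing of mouse retinas at embryonic day 16.5. The members are the genes whose symbol in the authors' deposited comparison table names a subunit of an AMPA, kainate, NMDA, delta or metabotropic glutamate receptor, a numbered GABA-A or GABA-A rho subunit, a GABA-B subunit or a glycine receptor subunit. The rule found 44 of the 55487 genes counted. Of these, 39 passed the filter on low counts and were tested. Gabrg1, Gabrr1, Gabrr2, Gabrr3 and Grin3b did not pass and had 1 to 12 counts per library. Another 4 names of the same families, Gabra6, Glra1, Glra4 and Grm6, have no row in that table as used here and are outside the rule.

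The 6 libraries come from C57BL/6 embryos of 1 litter, and each library pools the left and right retinas of 1 animal. The labelled genotype of 3 libraries is Foxp1 fl/fl with Six3-Cre, called cKO, and that of the other 3 is Foxp1 fl/fl without Cre, called control. All animals thus carry Foxp1 alleles flanked by loxP sites. The Cre driven by Six3 sequence is active in the developing retina, and the sources used here do not say which exons the loxP sites flank. The labelled sexes are female, male and male for cKO 1, 2 and 3, and female, female and male for control 1, 2 and 3. The series asks how loss of Foxp1, a forkhead transcription factor, alters gene expression in the embryonic retina.

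Fast signalling between neurons runs through ligand-gated channels. Glutamate opens cation channels of the AMPA, kainate and NMDA classes, and GABA and glycine open chloride channels. Metabotropic glutamate receptors and the GABA-B receptor act more slowly through G proteins. In the retina photoreceptors, bipolar cells and ganglion cells release glutamate, while amacrine and horizontal cells are the main sources of GABA and glycine. Before birth the mouse retina consists largely of dividing progenitors and young ganglion, amacrine, horizontal and cone cells, and most of its synapses form only after birth.

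The targeted gene goes against the labels. Foxp1 was at 72.4, 75.5 and 68.8 CPM in cKO-labelled libraries and at 50.8, 41.1 and 46.2 CPM in control-labelled libraries, with no overlap, where CPM is the usual depth-scaled count, taken on TMM-scaled library sizes. Its log2 fold change, cKO over control, was 0.65 with an edgeR adjusted p of 4.63e-05, whereas the authors' deposited table lists -0.60. Xist had 15165 counts in the library labelled cKO 1, 14143 in cKO 2 and 17599 in control 1, but 13 or fewer in the others, so that library cKO 2 departs from its male label and control 2 from its female label. In order of number, Xist thus marks the cKO-labelled libraries as female, female and male, which are the labelled sexes of control in the same order. It marks the control-labelled libraries as female, male and male, which are the labelled sexes of cKO in the same order. Foxp1, Xist and the authors' signs for Foxp1 and 36 of the 39 tested members would fit the labels if the 2 group names were exchanged, and the files used here do not settle it. Group names and directions below follow the labels, and under an exchange every direction would be reversed. Depth was 23707761 to 25714620 counts per library. Retinal progenitor markers summed to 6288 to 6605 CPM in every library, and lens markers to between 19.0 and 950 CPM.

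The promoters of 4 members are shown because the results turn on these genes: Gabbr1 and Grik5 had the highest levels per length, Gabbr2 came nearest to the threshold, and Gabra3 was the leading GABA-A alpha subunit. Each is the stretch before the RefSeq transcription start in GRCm38.p6, read 5′ to 3′ on the strand of the gene and cut where the GENCODE M21 gene begins, with CpG dinucleotides in capitals. The windows are chr17:37045716-37045965 (plus strand) for Gabbr1, chr4:46991874-46991964 (minus strand) for Gabbr2, chr7:25072370-25072619 (minus strand) for Grik5 and chrX:72656920-72657169 (minus strand) for Gabra3.
Gabbr1: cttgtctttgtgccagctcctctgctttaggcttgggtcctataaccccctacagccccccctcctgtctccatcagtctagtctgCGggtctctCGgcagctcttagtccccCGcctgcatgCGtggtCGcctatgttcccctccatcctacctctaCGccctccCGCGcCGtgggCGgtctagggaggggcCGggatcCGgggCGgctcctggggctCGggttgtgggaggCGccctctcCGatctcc
Gabbr2: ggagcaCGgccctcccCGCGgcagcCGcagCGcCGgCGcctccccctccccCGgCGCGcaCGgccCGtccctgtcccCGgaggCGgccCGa
Grik5: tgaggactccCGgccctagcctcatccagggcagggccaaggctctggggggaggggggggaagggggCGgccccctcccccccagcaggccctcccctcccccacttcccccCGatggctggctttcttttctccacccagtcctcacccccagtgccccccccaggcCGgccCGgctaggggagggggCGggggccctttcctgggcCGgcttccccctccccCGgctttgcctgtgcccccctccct
Gabra3: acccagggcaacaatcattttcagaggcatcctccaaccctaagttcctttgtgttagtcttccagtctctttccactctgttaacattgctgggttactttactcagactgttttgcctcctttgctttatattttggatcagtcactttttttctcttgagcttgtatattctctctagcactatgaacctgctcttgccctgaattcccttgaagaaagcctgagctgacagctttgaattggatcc
The Gabbr1 stretch holds 16 CpG dinucleotides in 250 bases, the shorter Gabbr2 stretch 15 in 91 bases, Grik5 8 in 250 bases and Gabra3 0 in 250 bases.

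RefSeq windows existed for 30 of the 44 members, 37 windows in all, and the 14 members with no entry were not examined. Over the 250 bases before the start, the member windows held a median of 9 CpG dinucleotides, against 6 in all 32851 windows of the table. Members were placed by the window that the RefSeq table lists first for a gene. Those with 15 to 42 CpG dinucleotides had a median level of 1.66 CPM per kb of exon (14 genes). Those with 5 to 14 had a median of 1.03 CPM per kb (10 genes), and those with 0 to 4 a median of 0.0672 CPM per kb (6 genes). The order was loose, with a Spearman rho of 0.39 over the 30 genes as a description. Gabra3, with no CpG in its windows, reached 3.35 CPM per kb, and Gabrb1, with 18 in the first, was at 0.0763 CPM per kb. Foxp1 belongs to the forkhead family, so the forkhead letters GTAAACA and ATAAACA were searched on both strands of the same windows. They occurred in 2 of the 37 member windows (5.41%), those of Gabrr1 and Gabrg1, and in 7.10% of all windows. Both genes were too low to be tested, and a match or its absence describes these letters only.

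No subunit passed the threshold between the labelled genotypes. With edgeR, 0 of the 39 tested members had an adjusted p under 0.05, against 0.781% of all 17275 tested genes, 0.486% lower and 0.295% higher. An unadjusted p under 0.05 was reached by 7 of the 39 members (17.9%), 6 lower and 1 higher in cKO-labelled libraries, while 16.5% of all genes reached it (8.64% lower, 7.83% higher), so the share of members is near the background. DESeq2 on the same counts gave an adjusted p to 5 members and called 1 of them, Gabbr2, against 9.61% of the 5887 genes to which it gave one. The groups did not overlap for 6 members that were lower in cKO-labelled libraries (15.4%, background 9.3%) and 2 that were higher (5.13%, background 10.8%), and 20.1% of all genes did not overlap in either direction. The median log2 fold change was -0.07 over the members and 0.00 over all genes. The 95% interval lay within 1.5-fold in either direction for 29 of the 39 members and for 12519 of all 17275 tested genes. In bulk retina, fewer cells of a type and less RNA per cell cannot be told apart.

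**Figure D1:**
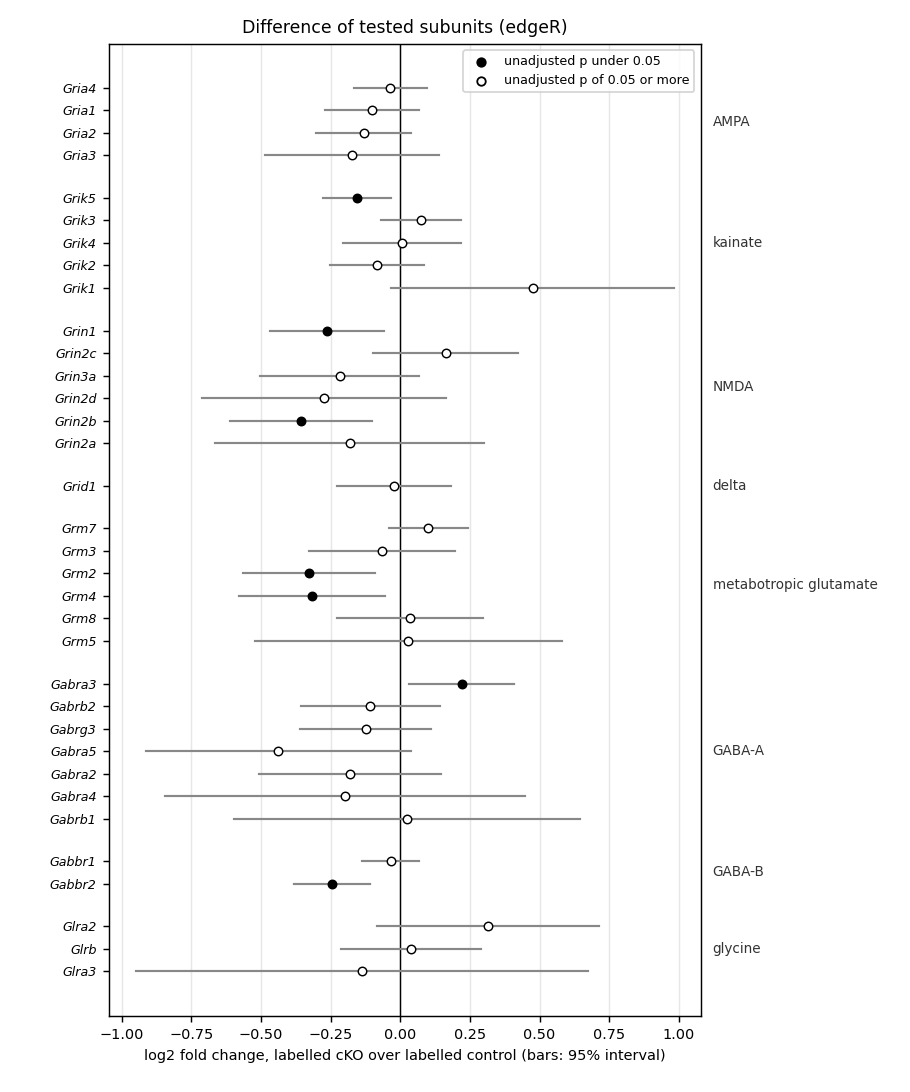
Log2 fold change of each tested subunit reported here, libraries labelled cKO over libraries labelled control (x axis), by receptor family (rows), with 95% intervals from edgeR as bars and filled points for an unadjusted p under 0.05. The 7 filled points are Grik5, Grin1, Grin2b, Grm2, Grm4 and Gabbr2 on the lower side and Gabra3 on the higher side, and none has an adjusted p under 0.05.

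GABA-B receptors are obligate pairs of a ligand-binding subunit, Gabbr1, and a G-protein-coupling subunit, Gabbr2. Gabbr1 was the most abundant member, at 227, 228 and 239 CPM in cKO-labelled libraries and 233, 239 and 239 CPM in control-labelled libraries. The groups overlapped, the log2 fold change was -0.03 (95% interval -0.14 to 0.07) and the edgeR adjusted p was 0.796. Gabbr2 (ENSMUSG00000039809, chromosome 4, 46662305 to 46991873, minus strand, mm10) was at 43.6, 41.4 and 38.0 CPM in cKO-labelled libraries and at 51.3, 48.9 and 45.5 CPM in control-labelled libraries. Every library labelled cKO lay below every one labelled control. The means were 41.0 ± 2.83 CPM for cKO and 48.6 ± 2.94 CPM for control (SD, n = 3 each), and the log2 fold change was -0.24 (95% interval -0.38 to -0.11), with an edgeR adjusted p of 0.0677.

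Whether Gabbr2 is called depends on the method and on single libraries. DESeq2 gave an adjusted p of 0.0257, and the authors' deposited table lists Gabbr2 with an adjusted p of 0.0108 and a log2 fold change of 0.29, the opposite sign. In edgeR it passed with no filter on low counts (adjusted p 0.0118), without the library labelled cKO 1 (adjusted p 0.0378) or control 3 (0.0136), and over the 6 fits that each leave out 1 library the log2 fold change lay between -0.29 and -0.19. Without both libraries numbered 2, whose Xist counts depart from their labels, the log2 fold change of Gabbr2 was -0.25 (adjusted p 0.714). Measured per kb of exon, Gabbr1 stood at 30.2 ± 0.73 CPM per kb and Gabbr2 at 6.70 ± 0.731 CPM per kb (SD over 6 libraries), and the ranges were apart. Gabbr2 made up 17.1 ± 1.36% of the pair in cKO-labelled libraries and 19.2 ± 1.14% in control-labelled libraries (SD, n = 3 each).

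GABA-A channels are pentamers, most often of alpha, beta and gamma subunits. Gabra3 led the alpha subunits, at 3.35 ± 0.323 CPM per kb of exon (SD over 6 libraries). Gabrb2, a beta subunit, was at 1.15 ± 0.0876 CPM per kb, and its range did not overlap that of Gabra3. Gabra6, which in the adult is typical of cerebellar granule cells, had 0 of 147525319 counts over the 6 libraries, which allows up to 0.0203 CPM.

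GABA-A genes lie in clusters. Gabra5 and Gabrg3 lie in one on chromosome 7, at 0.609 CPM per kb for Gabra5 and 0.913 CPM per kb for Gabrg3. Gabra6 and Gabrb2 lie in one on chromosome 11. Gabra3 lies with Gabre and Gabrq, which are outside the rule, on chromosome X. The chromosome 5 cluster held Gabra2 at 0.552, Gabra4 at 0.197, Gabrb1 at 0.0763 and Gabrg1 at 0.0388 CPM per kb. Gabra2 overlapped in range with Gabra5 of the chromosome 7 cluster. Gabra4 and Gabrb1 overlap in exon bases on opposite strands in GENCODE M21, and the sources used here do not say whether counting used the strand, so these counts are uncertain. The same holds for Grin1, Grin2b, Grin2c, Grin2d, Grm2, Grm6, Grm7, Gabrr3 and Glra1, whose exons overlap an annotated noncoding gene on the other strand. It also holds for Grin3b, whose exons overlap those of the protein-coding Tmem259.

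Of the 10 tested GABA-A members, 4 were higher and 6 lower in cKO-labelled libraries, with a median log2 fold change of -0.08 and none past the threshold. Gabra3 (ENSMUSG00000031343, chromosome X, 72432681 to 72656848, minus strand) was at 14.8, 14.5 and 13.2 CPM in cKO-labelled libraries and at 11.6, 12.6 and 12.2 CPM in control-labelled libraries. All libraries labelled cKO lay above all those labelled control, the log2 fold change was 0.22 (95% interval 0.03 to 0.41) and the edgeR adjusted p was 0.222. The gene is X-linked. Of the 3 libraries with high Xist, cKO 1 and cKO 2 were the highest for Gabra3 and control 1 was the lowest.

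Gabra5 was low and apart, at 1.41, 1.70 and 1.5 CPM in cKO-labelled libraries and at 1.84, 2.22 and 2.19 CPM in control-labelled libraries, with an interval from -0.91 to 0.04 on the log2 scale and an edgeR adjusted p of 0.352. It shares exon bases with an annotated antisense gene, so its counts carry the same uncertainty.

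The rho subunits form the GABA channels known from adult bipolar cell terminals. Gabrr1 had 7, 5 and 11 counts in cKO-labelled libraries and 6, 9 and 9 in control-labelled libraries. Gabrr2 had 7, 2 and 10 counts in cKO-labelled libraries and 11, 8 and 4 in control-labelled libraries. Gabrr3 had 2, 4 and 10 counts in cKO-labelled libraries and 7, 4 and 1 in control-labelled libraries. The groups overlapped for all 3, and at this depth no difference in them was detectable.

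Glycine channels are built from an alpha subunit with the beta subunit Glrb, which binds the scaffold gephyrin. Glra2, the alpha subunit of immature neurons and X-linked, was at 6.14, 8.07 and 7.19 CPM in cKO-labelled libraries and at 3.89, 6.25 and 7.04 CPM in control-labelled libraries. The library labelled control 1 stood below the rest, and the groups overlapped. The log2 fold change was 0.32 (95% interval -0.08 to 0.71, edgeR adjusted p 0.433) and was 0.10 without that library and 0.49 without control 3. Glrb was at 6.30, 7.36 and 7.11 CPM in cKO-labelled libraries and at 6.65, 6.77 and 6.79 CPM in control-labelled libraries (log2 fold change 0.04, edgeR adjusted p 0.922). Per length Glra2 (2.04 ± 0.453 CPM per kb) and Glrb (1.47 ± 0.0789 CPM per kb, SD over 6 libraries) overlapped in range, and with the longest coding transcript as length their order turned round, a choice of length made after the data were seen. Glra3 was at 0.0704 CPM per kb, Glra1 had 0 to 5 counts per library and Glra4 had 1 count in all.

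**Figure D2:**
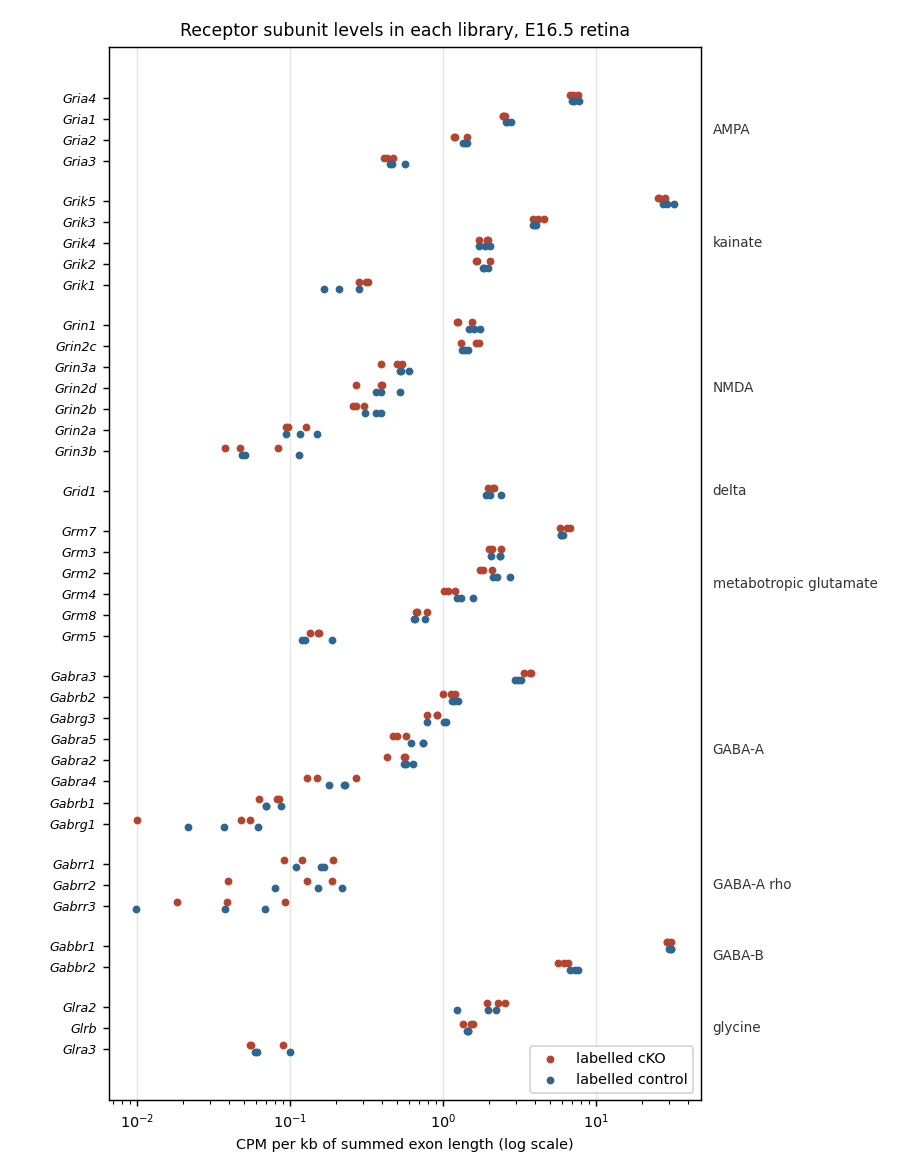
Level of each member reported here in each library, in CPM per kb of summed exon length (x axis, log scale), by receptor family (rows), with libraries labelled cKO in red above those labelled control in blue. Gabbr1 and Grik5 lie near 30 CPM per kb, the members without a test lie at the low end, and the colours overlap for most genes.

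AMPA receptors carry most fast glutamate transmission, and their subunits stood in the order Gria4, Gria1, Gria2 and Gria3 with no overlap between neighbours. The levels were 7.23 ± 0.389, 2.58 ± 0.121, 1.33 ± 0.117 and 0.465 ± 0.0541 CPM per kb of exon (SD over 6 libraries). Gria4 made up 63.0 ± 1.91% of the summed level in cKO-labelled libraries and 61.6 ± 1.22% in control-labelled libraries (SD, n = 3 each). All 4 had a log2 fold change below 0, between -0.17 and -0.04, and none passed. Gria2, whose edited RNA makes the channel impermeable to calcium, was at 18.2, 18.6 and 22.3 CPM in cKO-labelled libraries and at 22.3, 20.9 and 21.6 CPM in control-labelled libraries (log2 fold change -0.13, edgeR adjusted p 0.462), and the fold change was -0.08 without cKO 1 and -0.23 without cKO 3. Gria4 was at 42.5, 47.9 and 44.6 CPM in cKO-labelled libraries and at 44.0, 45.4 and 49.0 CPM in control-labelled libraries (log2 fold change -0.04, edgeR adjusted p 0.842). Gria1 was at 14.9, 14.8 and 15.3 CPM in cKO-labelled libraries, below the 15.7, 15.8 and 16.8 CPM of control-labelled libraries, with a log2 fold change of -0.10 and an edgeR adjusted p of 0.589.

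Kainate receptors were dominated by Grik5, a high-affinity subunit that needs a partner from Grik1 to Grik3 to form a channel. Grik5 was at 28.1 ± 2.47, Grik3 at 4.09 ± 0.252, Grik4 at 1.88 ± 0.130 and Grik2 at 1.83 ± 0.158 CPM per kb of exon (SD over 6 libraries), and the ranges of Grik4 and Grik2 overlapped. By the longest coding transcript Grik2 came before Grik4. Grik5 (ENSMUSG00000003378, chromosome 7, 25009849 to 25072346, minus strand) was at 146, 132 and 134 CPM in cKO-labelled libraries and at 167, 150 and 142 CPM in control-labelled libraries. The groups overlapped through cKO 1 and control 3. The means were 137 ± 7.98 CPM for cKO and 153 ± 12.6 CPM for control (SD, n = 3 each), and the log2 fold change was -0.16 (95% interval -0.28 to -0.03) with an edgeR adjusted p of 0.180.

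Grik5 passed in edgeR only in the fit without the library labelled control 3 (adjusted p 0.0416) among the 6 fits that leave out 1 library, and its log2 fold change was -0.09 without control 1. The authors' deposited table lists it with an adjusted p of 0.0363 and a log2 fold change of 0.20, the opposite sign. Grik3 was at 40.8, 34.7 and 37.4 CPM in cKO-labelled libraries and at 36.4, 36.0 and 34.8 CPM in control-labelled libraries (log2 fold change 0.07, edgeR adjusted p 0.652). Grik4 had a log2 fold change of 0.01, with an interval from -0.20 to 0.22. Grik1, a low subunit, had a log2 fold change of 0.47 with an interval from -0.03 to 0.98 and an edgeR adjusted p of 0.339, and of 0.32 without control 1.

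NMDA receptors need the subunit Grin1 together with Grin2 or Grin3 subunits. Of the 6 tested, 5 were lower and 1 higher in cKO-labelled libraries, with a median log2 fold change of -0.24 and none past the threshold. Across all tested genes the log2 fold change fell with summed exon length, as given below. That trend stood at -0.17 for the length of Grin2b, -0.13 for Grin2a, -0.09 for Grin3a and -0.07 for Grin1. For Grin2d and Grin2c it stood at -0.03 and -0.01. The summed level of the 7 NMDA members was 38.1 ± 1.83 CPM in cKO-labelled libraries and 43.6 ± 2.51 CPM in control-labelled libraries (SD, n = 3 each). Grin1 was at 15, 12.2 and 12 CPM in cKO-labelled libraries and at 14.4, 17.0 and 15.6 CPM in control-labelled libraries. The library labelled cKO 1 lay above control 1, the log2 fold change was -0.26 (95% interval -0.47 to -0.06) and the edgeR adjusted p was 0.177. Without both libraries numbered 2 the log2 fold change of Grin1 was -0.15. Grin2b, the Grin2 subunit that leads in the embryonic brain, was at 7.55, 6.74 and 6.40 CPM in cKO-labelled libraries, below the 9.04, 9.79 and 7.63 CPM of control-labelled libraries. Its log2 fold change was -0.36 (95% interval -0.61 to -0.10) with an edgeR adjusted p of 0.141.

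Per length the Grin2 subunits did not follow the order of their counts. Grin1 (1.48 ± 0.203 CPM per kb) and Grin2c (1.48 ± 0.170 CPM per kb, SD over 6 libraries) were the highest and overlapped in range, and Grin3a followed at 0.516 ± 0.0696 CPM per kb. By the longest coding transcript Grin1 stood at 3.36 and Grin2c at 1.52 CPM per kb, so their closeness rests on the length used. Grin2b stood at 0.316 ± 0.0530 CPM per kb, with annotated exons that sum to 24842 bases, against 5037 for Grin2c, and its place in the order rests on that length. Grin2a, which leads in the adult forebrain, was at 0.113 ± 0.0228 CPM per kb. Grin2c was at 6.61, 8.23 and 8.73 CPM in cKO-labelled libraries and at 7.32, 6.73 and 7.0 CPM in control-labelled libraries (log2 fold change 0.16, edgeR adjusted p 0.565), and the fold change was 0.27 without cKO 1 and 0.08 without cKO 3. Grin3a had a log2 fold change of -0.22 with an edgeR adjusted p of 0.467, and of -0.09 without cKO 3, and Grin3b had 3 to 9 counts per library.

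The delta receptors are relatives of glutamate channels that bind cerebellins and organise synapses. Grid1 was at 11.8, 12.6 and 12.8 CPM in cKO-labelled libraries and at 11.5, 12.1 and 14.2 CPM in control-labelled libraries. The groups overlapped, with a log2 fold change of -0.02 and an edgeR adjusted p of 0.948.

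Metabotropic glutamate receptors were led by Grm7, a presynaptic receptor of low glutamate affinity, at 6.16 ± 0.394 CPM per kb of exon. Grm3 (2.22 ± 0.186 CPM per kb) and Grm2 (2.13 ± 0.353 CPM per kb, SD over 6 libraries) followed and overlapped in range, and their order turned round by the longest coding transcript. Grm7 was at 34.3, 38.3 and 39.9 CPM in cKO-labelled libraries and at 34.6, 34.7 and 35.6 CPM in control-labelled libraries (log2 fold change 0.10, edgeR adjusted p 0.508), and the fold change was 0.16 without cKO 1 and 0.05 without cKO 3. Grm2, which inhibits release through Gi proteins, was at 10.3, 8.61 and 8.89 CPM in cKO-labelled libraries and at 13.4, 11.1 and 10.4 CPM in control-labelled libraries. Grm4, of the same Gi-coupled kind, was at 7.12, 6.11 and 6.48 CPM in cKO-labelled libraries and at 9.41, 7.37 and 7.80 CPM in control-labelled libraries. The groups did not overlap for Grm2 or Grm4, and control 1 was the highest library for both.

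The log2 fold change of Grm2 was -0.33 (95% interval -0.56 to -0.09, edgeR adjusted p 0.141) and that of Grm4 was -0.32 (95% interval -0.58 to -0.06, edgeR adjusted p 0.201). Without control 1 they were -0.21 and -0.21. Grm3 had a log2 fold change of -0.07 with an edgeR adjusted p of 0.857. The Gq-coupled receptor Grm5 was at 0.146 CPM per kb. Grm6, the receptor by which adult ON bipolar cells sense glutamate, had 0 counts in all 6 libraries, which allows up to 0.0203 CPM. The highest of the 7 listed genes of that cascade were Gnao1 and Gnb3. Gnao1 was at 262 ± 17.4 CPM in cKO-labelled libraries and 289 ± 17.7 CPM in control-labelled libraries. Gnb3 was at 49.2 ± 1.30 CPM for cKO and 48.0 ± 1.74 CPM for control (SD, n = 3 each). Lower means over the 6 libraries were found for Trpm1 (14.2 CPM), Lrit3 (7.45), Gpr179 (4.94), Rgs11 (4.52) and Nyx (1.34).

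**Figure D3:**
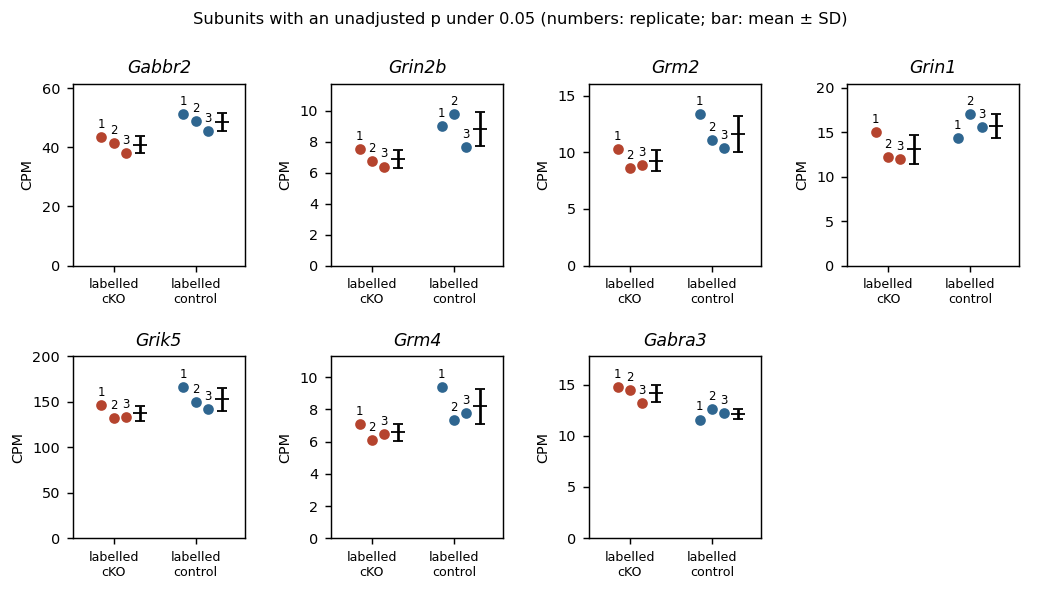
CPM in each library (y axis, from 0) of the 7 members with an unadjusted edgeR p under 0.05, libraries labelled cKO at left in red and libraries labelled control at right in blue, with replicate numbers and the mean ± SD as bars. Gabbr2, Grin2b, Grm2 and Grm4 lie lower and Gabra3 higher without overlap, while Grin1 and Grik5 overlap.

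All members together took 0.0832%, 0.0819% and 0.0854% of all counts in cKO-labelled libraries, and 0.0869%, 0.0879% and 0.0866% in control-labelled libraries, with no overlap. Gabbr1 and Grik5 alone made up 43.5% to 45.7% of the summed CPM of the members. The 8 amacrine markers summed to 401 to 417 CPM in cKO-labelled libraries and 443 to 476 CPM in control-labelled libraries, and 1 of them was called lower. The 4 horizontal cell markers summed to 220 to 238 CPM in cKO-labelled libraries and 245 to 286 CPM in control-labelled libraries, also with 1 called lower. Of all tested genes, 0.486% were called lower in edgeR, and 20.1%, taken singly, did not overlap between the groups in either direction. The 9 ganglion cell markers summed to 1919 to 2092 CPM in cKO-labelled libraries and 1894 to 1975 CPM in control-labelled libraries. The 5 endothelial markers summed to 297 to 306 CPM in cKO-labelled libraries and 328 to 353 CPM in control-labelled libraries, and lens markers overlapped at 19.0 to 265 CPM for cKO and 64.4 to 950 CPM for control. The 4 bipolar cell markers summed to 28.7 to 31.8 CPM for cKO and 32.8 to 34.7 CPM for control. Only 2 of these 4 passed the filter on low counts, so the sum rests on few genes. Of all listed markers, Grm6 was the one with 0 counts in every library. The part of these cell types in the receptor values was not tested.

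Exon length moved with the fold changes. Across the 17245 tested genes with a length, which are no independent replicates, log2 fold change and summed exon length had a Spearman rho of -0.27, and receptor genes are long, with a median of 6686 bases for the tested members and 3923 for all tested genes. Once each library's trend with length was removed, the median log2 fold change of the members was -0.02, against 0.00 for all genes, 22 of 39 members were lower in place of 24, and none passed. The value of Grin2b, the longest member, was then -0.19, that of Gabbr2 -0.22, that of Grm2 -0.33 and that of Gabra3 0.20.

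**Figure D4:**
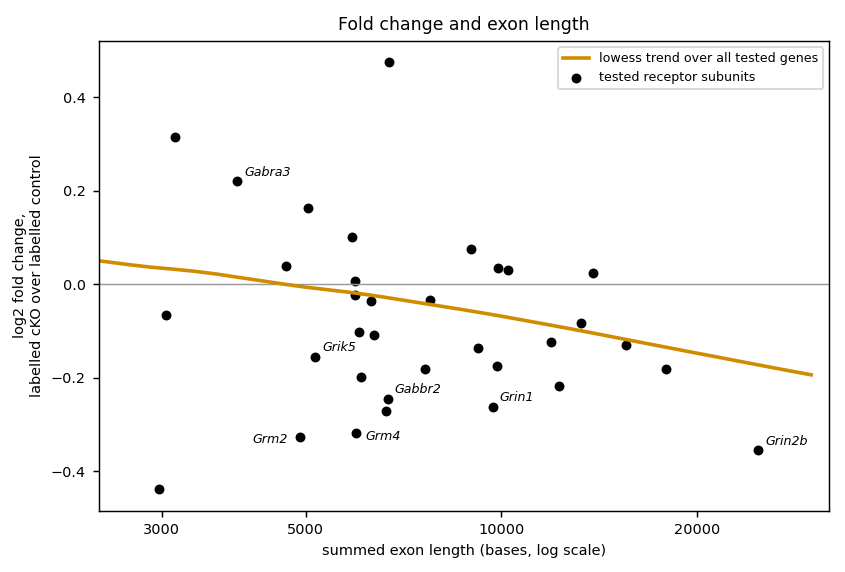
Log2 fold change, libraries labelled cKO over libraries labelled control (y axis), against summed exon length in bases (x axis, log scale) for the tested members reported here (points), with the lowess trend over all tested genes as a line. The line falls with length, and Grin2b is the longest of the named members.

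Genes that work beside these receptors were taken from lists of 61 genes, of which 60 were tested. In edgeR, 1 was called higher and 1 lower in cKO-labelled libraries, against 0.781% of all genes called. Of the 60, 43 (71.7%) had a log2 fold change below 0, against 49.9% of all tested genes. Their median exon length was 5799 bases, against 3923 for all tested genes. Gabarapl2, of the ubiquitin-like family that also holds the GABA-A binding protein Gabarap, was at 63.8, 70.6 and 67.8 CPM in cKO-labelled libraries, above the 57.0, 55.8 and 60.5 CPM of control-labelled libraries (log2 fold change 0.22, edgeR adjusted p 0.0487). The call was lost without cKO 2, cKO 3, control 1 or control 2 (edgeR adjusted p 0.144 to 0.364), without both libraries numbered 2 (0.714) and with the length trend removed (0.138).

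Of the 18 glutamate receptor scaffolds, 17 had a log2 fold change below 0, with a median of -0.09 and a median exon length of 9274 bases. Shank1, Shank2 and Shank3, chosen after their values were seen, had log2 fold changes of -0.33, -0.25 and -0.25. Their edgeR adjusted p values were 0.105, 0.147 and 0.214, and their groups did not overlap. Of the 18 scaffolds, 7 were lower without overlap (38.9%, background 9.3%) and 1 was higher (5.56%, background 10.8%). Among the 16 AMPA and kainate auxiliary subunits none was called. The highest, Olfm1 and Cacng4, a TARP that guides AMPA receptors, had log2 fold changes of 0.01 and -0.01 (edgeR adjusted p 0.940 and 0.961). Of the 16, 6 were higher and 10 lower. Gabre and Gabrq, GABA-A subunits outside the rule, had log2 fold changes of -0.21 and 0.19 (edgeR adjusted p 0.615 and 0.714), and Gabrp had 0 counts. Of the 14 inhibitory scaffold and assembly genes, the list of Gabarapl2, 5 were higher and 9 lower, and of the 7 genes of the Grm6 cascade 3 were higher and 4 lower with none called.

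The chloride transporters set whether GABA excites or inhibits, with Slc12a2 loading chloride in immature neurons and Slc12a5 extruding it in mature ones. Slc12a2 was at 54.9, 52.1 and 56.7 CPM in cKO-labelled libraries and at 54.0, 57.8 and 56.3 CPM in control-labelled libraries (log2 fold change -0.04, edgeR adjusted p 0.784). Slc12a5 was at 18.7, 18.8 and 22.4 CPM in cKO-labelled libraries, below the 24, 24.2 and 24.5 CPM of control-labelled libraries, with a log2 fold change of -0.28 (95% interval -0.44 to -0.11) and an edgeR adjusted p of 0.0826.

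The authors' deposited table gives an adjusted p for 8 of the 44 members, the more abundant ones, and it is under 0.05 for Gabbr2 and Grik5. Among all genes of that table with an adjusted p, 8.97% are under 0.05. Its sign is opposite to that from the counts for 36 of the 39 tested members, as it is for Foxp1. Both rest on the same libraries, so the table is no second result.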

How the data were processed

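Bulk RNA sequencing was analysed for 3 libraries labelled cKO and 3 labelled control. Counts, as deposited, are whole reads for each gene without normalization. The authors, per the submitters' processing notes, used cutadapt 2.8, STAR 2.7.6a, featureCounts 1.5.1, DESeq2 1.32.0 and the mm10 build. Per the labels' protocols, ribosomal RNA was depleted and the library kit keeps strand, but the sources used here do not state the counting settings, strand use among them. The authors' deposited comparison table holds, per the file headers, a mean normalized signal, a log2 fold change, its error, a test score and p-values before and after adjustment.

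Genes were filtered with filterByExpr and tested with edgeR 4.0.16 (R 4.3.3), with TMM scaling, genotype as the one term, a robust quasi-likelihood fit and Benjamini-Hochberg adjustment over all 17275 genes at 0.05. Dividing a fold change by the root of its F gave the standard error and, from it, the 95% interval. CPM uses TMM-scaled library sizes. Lengths and positions are from GENCODE M21, names from the authors' table first. The scripts were tested on simulated data. Depth was 23707761 to 25714620 counts per library, and chi-square over degrees of freedom was 7.39 to 12.5 between libraries of one group, so none was counted as a duplicate. Per the labels, each library is a different littermate.

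Members and lists were chosen with earlier results of these data known. Named are members past the threshold or with an unadjusted p under 0.05, the 3 highest per family per length, members not tested, and per partner list the genes called or else the 2 highest. Some genes that this rule names are not reported here, though the counts include them. Other members and the Shank genes were named after their values were seen. The alternatives were RLE and upper quartile normalization, a filter at 1 CPM or none, no robust estimation, DESeq2 1.42.0, limma-voom (limma 3.58.1), labelled sex, the replicate block, exon length offsets (lowess, span 0.3), and leaving out libraries.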

Additional observations from a re-analysis of the deposited data

How the results depend on the processing

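No member was called under RLE or upper quartile normalization, a filter at 1 CPM, no robust estimation, limma-voom, labelled sex, the length trend removed or without both libraries numbered 2. Called were 1 member with no filter and 1 with DESeq2 (Gabbr2 in both), and 0 to 2 with each library left out. The median log2 fold change of the members, -0.07 here, was -0.016 with the length trend removed and -0.09 to -0.04 with each library left out. All genes called, 135 here, were 83 with the 1 CPM filter, 742 with no filter, 10 with no robust estimation, 566 with DESeq2, 13 with limma-voom, 38 with the length trend removed, 9 without both libraries numbered 2 and 19 to 778 with each library left out. Partner genes called, 2 here, were 1 with RLE, 0 with upper quartile, 1 with the 1 CPM filter, 6 with no filter, 0 with no robust estimation, 4 with DESeq2, 0 with limma-voom, 1 with labelled sex, 0 with the length trend removed, 0 without both libraries numbered 2 and 0 to 4 with each library left out. The sex term used the labels, which Xist contradicts in 2 of the 6 libraries, so it is no check on sex. No fit held the sex that Xist marks, which is not balanced between the labelled groups. The fold changes may therefore include a difference of sex, also for the X-linked members, and its part in them was not tested. The causes were not tested.

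With the replicate block, 2 members (Gabbr2 and Grik5), 6 partner genes and 1065 of all genes were called. The numbers did not pair the samples by the rule used: same-numbered libraries correlated in their deviations from the group means at 0.41, -0.14 and 0.50 for numbers 1, 2 and 3, and the library labelled cKO 2 correlated best with control 1. Depth limits the rare subunits: the standard error of the log2 fold change was 0.05 to 0.11 for the 18 tested members of at least 10 CPM and 0.23 to 0.39 for the 8 tested members under 2 CPM. Levels per length rest on annotated exons.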
